A study of Sus scrofa with 17 samples.

Results

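HSPA6 is 1 of the 26560 genes in the count table of 17 porcine kidneys (identifier ENSSSCG00000047932). It was chosen from its counts in these same kidneys, so its levels are described here and no difference in them between groups was tested. RNA was sequenced from biopsies taken at the end of perfusion, 1 kidney per pig, from wild type female Dutch Landrace pigs aged from 6 months to 1 year. Every kidney had 32 min of warm ischemia, then 24 h of hypothermic machine perfusion (HMP) in the cold and 5 h of normothermic machine perfusion (NMP) at body temperature with the pig's own blood cells. G1 (n = 5) received PBS in both perfusions. G2 (n = 6) received extracellular vesicles of porcine urine progenitor cells (pUPC-EVs, called exosomes in the sample labels) during HMP and PBS during NMP, and G3 (n = 6) received pUPC-EVs in both. No biopsy from before perfusion was analysed here, so the level of HSPA6 in an unstressed kidney is not known, and all 3 groups share the ischemia and both perfusions. The kidneys came from a slaughterhouse and had no recipient, which limits the model to the isolated organ.

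HSPA6, also known as HSP70B', belongs to the HSP70 chaperones, which bind unfolded stretches of other proteins and use ATP to help them refold. Cells hold some HSP70 proteins at all times, such as HSPA8, whereas HSPA6 is known as a strictly stress-inducible member that is hardly made by unstressed cells. Under heat, oxidant stress or loss of energy, unfolded proteins draw chaperones away from the transcription factor HSF1, which then binds the promoters of heat shock genes. HSP70 works with DNAJ co-chaperones that deliver the substrate, with nucleotide exchange factors such as HSPH1 and BAG3 that release it, and with small heat shock proteins such as HSPB1 and CRYAB that hold unfolded proteins until HSP70 takes them. In the kidney, ischemia and reperfusion are known to raise HSP70 in tubule cells.

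In the RefSeq annotation of the pig genome Sscrofa11.1, the build the reads were aligned to, HSPA6 lies at chr4:88970592-88973109, a span of 2518 bases on chromosome 4. The genes around it there include FCGR2B and FCGR3A, which encode receptors for the constant part of antibodies. The pig gene that RefSeq names HSP70.2, with the synonyms HSPA1A and HSPA1B, is the major inducible HSP70 and lies at chr7:23925929-23927854. It falls inside the span given for HSPA1L, at chr7:23909960-23938678. HSP70 genes have long stretches of like sequence and the treatment of reads shared between copies is not stated, so the split of counts among HSPA6, HSP70.2 and HSPA1L is uncertain.

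HSPA6 was strongly expressed in every kidney, with between 5670 and 23750 counts. Ranked by counts, it was between the 69th and the 575th gene of a kidney. Its level was highest in the kidneys that received no vesicles. Levels are given as CPM, the counts of a gene relative to the total of its library after TMM normalization. In G1, HSPA6 stood at 923, 1025.5, 1131, 675 and 968 CPM in kidneys 1 to 5. In G2 it stood at 498, 524, 501, 437, 475 and 714 CPM in kidneys 1 to 6. In G3 it stood at 870.2, 276, 847, 405, 513 and 812.5 CPM in kidneys 1 to 6. G1 and G2 thus each held 1 kidney apart from the rest, lower in G1 and higher in G2. In G3, 3 kidneys were near the G1 levels and 3 were lower, among them the lowest of all 17.

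The mean level was 944 ± 169.6 CPM in G1 (SD, n = 5), 621 ± 256 CPM in G3 (SD, n = 6) and 525 ± 97.3 CPM in G2 (SD, n = 6). Between neighbours in this order the intervals of mean ± SD overlapped, both for G1 with G3 and for G3 with G2. Those of G1 and G2 did not overlap. The coefficient of variation was 18.0% in G1, 18.5% in G2 and 41.2% in G3. Of the 6 G2 kidneys, 5 lay below every G1 kidney, and G2 kidney 6 lay above G1 kidney 4. Of the 6 G3 kidneys, 3 lay below every G1 kidney, and of the 5 G1 kidneys, 4 lay above all kidneys of G2 and all kidneys of G3. The whole range of G2 lay inside that of G3.

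**Figure D1:**
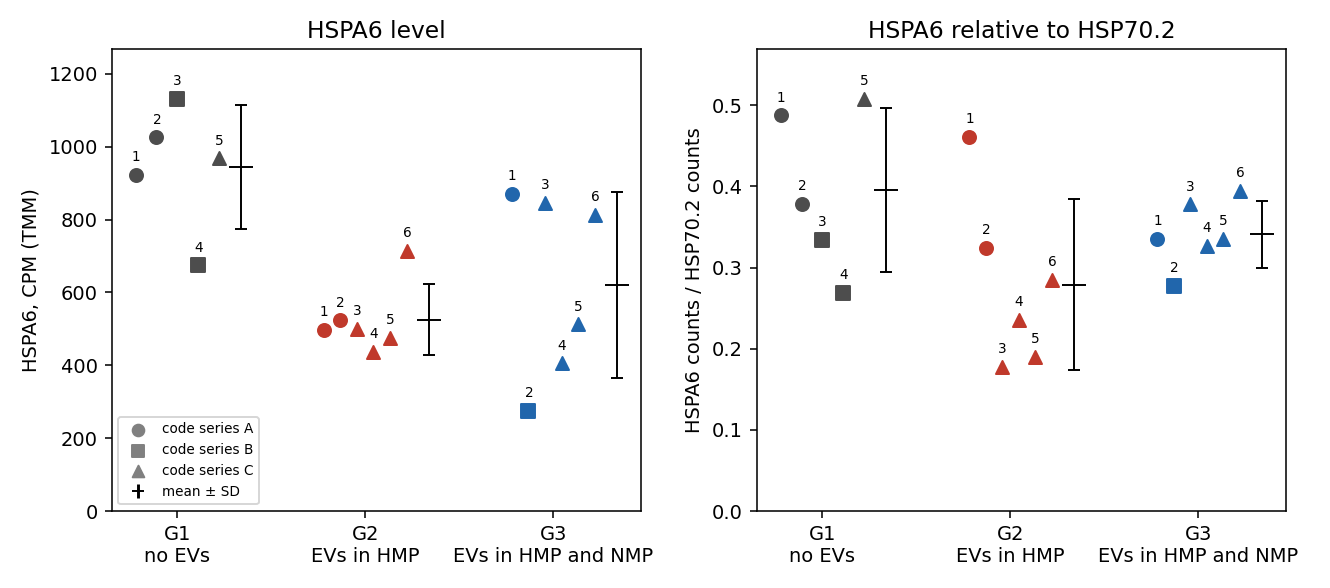
HSPA6 in each kidney as CPM (left) and as the ratio of its counts to those of HSP70.2 (right), by group, on linear axes from 0, with kidney numbers beside the points, shapes for the run of sample codes (A, B or C) and bars for mean ± SD. The 5 G1 kidneys reach from 675 to 1131 CPM, 5 of the 6 G2 kidneys lie below all of them, and G3 reaches from 276 to 870.2 CPM.

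Relative to G1, mean HSPA6 was 0.556 times as high in G2 and 0.657 times as high in G3. The fitted log2 fold change of edgeR was -0.85 (SE 0.165) for G2 against G1, -0.62 (SE 0.252) for G3 against G1 and 0.25 (SE 0.243) for G3 against G2. The last of these was 0.13, 0.14 and 0.15 without G3 kidney 1, 3 or 6, and 0.40 without G3 kidney 2. It was 0.02 by limma voom with quality weights, a fit that changes the method and also weights each kidney. In a fit that includes the run of sample codes described next, it was 0.41. The 3 comparisons share groups and are not independent of each other. In bulk tissue, fewer cells that express a gene and less RNA per cell cannot be told apart.

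The sample codes form 3 runs of consecutive numbers whose meaning is not stated, called series A, B and C here. The 5 G1 kidneys are split into 2 in A, 2 in B and 1 in C. G2 has 2 kidneys in A and 4 in C, and G3 has 1 in A, 1 in B and 4 in C. For G2 against G1, the difference in mean log2 CPM of HSPA6 was -0.93 in series A and -0.89 in series C. For G3 against G1 it was -0.16 in series A, -1.66 in series B and -0.65 in series C, and for G3 against G2 it was 0.77 in series A and 0.24 in series C. The sign was the same in each series that holds both groups, but several of these values rest on 1 kidney of a group, and the part of the series in the result was not tested.

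HSP70.2, the other strongly inducible HSP70, had overlapping levels in the 3 groups. It stood at 1892, 2711, 3382, 2508 and 1907 CPM in G1 kidneys 1 to 5, and at 1082, 1617, 2817, 1854, 2499 and 2505 CPM in G2 kidneys 1 to 6. In G3 kidneys 1 to 6 it stood at 2594, 995, 2242, 1241, 1530.2 and 2061 CPM. The G3 kidneys with high HSPA6 (kidneys 1, 3 and 6) were also the 3 with the highest HSP70.2 in that group. G2 kidneys 3, 5 and 6 had HSP70.2 within the G1 range. Of these, kidneys 3 and 5 had HSPA6 below every G1 kidney, and kidney 6 had it above G1 kidney 4. The log2 fold change of HSP70.2 was -0.49 (SE 0.235, edgeR adjusted p = 0.813) for G3 against G1, and -0.27 (SE 0.237, edgeR adjusted p = 0.844) for G2 against G1.

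The ratio of HSPA6 counts to HSP70.2 counts compares both inducible genes within a library. It averaged 0.395 ± 0.101 in G1 (SD, n = 5), 0.279 ± 0.105 in G2 (SD, n = 6) and 0.341 ± 0.0413 in G3 (SD, n = 6). Across G3 it ran from 0.277 to 0.394, while HSPA6 itself ran from 276 to 870.2 CPM. In G2 it ran from 0.178 in kidney 3 to 0.461 in kidney 1. All 3 groups overlapped in this ratio, and no test was made of it because HSPA6 is part of it.

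The other heat shock genes were looked at as a list of 28 symbols, which map to 27 pig genes because HSPA1A and HSPA1B are both HSP70.2. The list holds HSP70 and HSP90 chaperones, co-chaperones, small heat shock proteins, mitochondrial chaperones, ubiquitin genes and the factors HSF1 and HSF2. All 27 genes were tested, and none had an adjusted p under 0.05 in any comparison by edgeR, DESeq2 or limma voom with quality weights. For G3 against G1, 23 of the 27 had a log2 fold change below zero, with a median of -0.21, beside 53.1% and a median of -0.02 over all genes tested. By edgeR, 4 of 27 were lower at an unadjusted p under 0.05 and 0 were higher, where 2.79% of all genes tested were lower and 1.94% were higher. With the code series as a covariate, 0 of 27 were lower at that threshold, beside 2.87% of all genes. The median was then -0.12, beside -0.03 over all genes. The number lower was 11 with library size only, 12 with a replicate block and 9 with voom and quality weights together. The shares of all genes lower were 4.10%, 2.31% and 3.81% in the same order. Without G1 kidney 3, the kidney with the highest HSPA6, 0 of 27 were lower, beside 2.32% of all genes, and the median was -0.14, beside -0.01. The count was 1 without G3 kidney 4, 2 without G1 kidney 2, G3 kidney 2 or G3 kidney 5, 7 without G1 kidney 1 and 8 without G3 kidney 3, while the share of all genes lower lay between 2.04% and 3.25% with any 1 kidney left out. The share of all genes with an adjusted p under 0.05 was 0.00778%, and the smallest adjusted p on the list was 0.813 by edgeR.

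For G2 against G1, 22 of 27 heat shock genes had a log2 fold change below zero with a median of -0.12, beside 50.7% and a median of -0.01 over all genes. By edgeR, 0 of 27 were lower or higher at an unadjusted p under 0.05, where 2.09% of all genes were lower and 1.42% higher, and 0% of all genes had an adjusted p under 0.05. With the code series as a covariate, 12 of 27 lay below zero and the median was 0.04. With library size only, 26 of 27 lay below zero, the median was -0.21, and 2 of 27 were lower at the unadjusted threshold. Over all genes that scaling gave a median of -0.09, with 2.67% lower. Voom with quality weights gave 24 of 27 below zero and a median of -0.17, beside -0.02 over all genes. Without G1 kidney 3, 15 of 27 lay below zero and the median was -0.01. It was -0.07 without G2 kidney 1, -0.08 without G2 kidney 5 and -0.18 without G1 kidney 5. For G3 against G2, 22 of 27 lay below zero with a median of -0.10, beside 50.3% of all genes. With the code series as a covariate 16 of 27 lay below zero, and the median was -0.04 without G2 kidney 6, -0.07 without G3 kidney 4 and -0.17 without G3 kidney 6. By edgeR, 0 of 27 passed the unadjusted threshold, where 1.52% of all genes were lower and 1.61% higher, and again 0% had an adjusted p under 0.05.

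The 4 genes lower in G3 than in G1 at an unadjusted p under 0.05 assist HSP70 or fold a special client. BAG3, a co-chaperone that releases substrates from HSP70 and links it to autophagy, stood at 436, 549, 972, 653 and 454 CPM in G1. In G3 it stood at 505, 349, 517, 345, 382 and 443 CPM, so that 3 of the 5 G1 kidneys lay above all G3 kidneys. Its log2 fold change was -0.54 (SE 0.195, edgeR adjusted p = 0.813). HSPH1, a large HSP70 relative that acts as nucleotide exchange factor, had a log2 fold change of -0.48 (SE 0.195, edgeR adjusted p = 0.813). SERPINH1, the collagen chaperone of the endoplasmic reticulum, had -0.46 (SE 0.189). DNAJB4, a DNAJ co-chaperone, had -0.55 (SE 0.233). All 4 had the same edgeR adjusted p of 0.813.

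For G2 against G1, the heat shock genes with the smallest p were SERPINH1, with a log2 fold change of -0.28 (SE 0.169, edgeR adjusted p = 0.840), the small heat shock protein HSPB1, with -0.21 (SE 0.143), and the factor HSF2, with -0.20 (SE 0.148). For G3 against G2 they were HSPB8, the small heat shock protein that works with BAG3, with 0.47 (SE 0.282, edgeR adjusted p = 0.948), DNAJB4, with -0.34 (SE 0.217), and BAG3, with -0.28 (SE 0.181). HSF1, whose activity is known to be set mainly after translation, had mean levels of 37.2, 38.4 and 39.5 CPM in G1, G2 and G3. Its log2 fold change was 0.08 (SE 0.108) for G3 against G1 and 0.04 (SE 0.121) for G2 against G1.

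**Figure D2:**
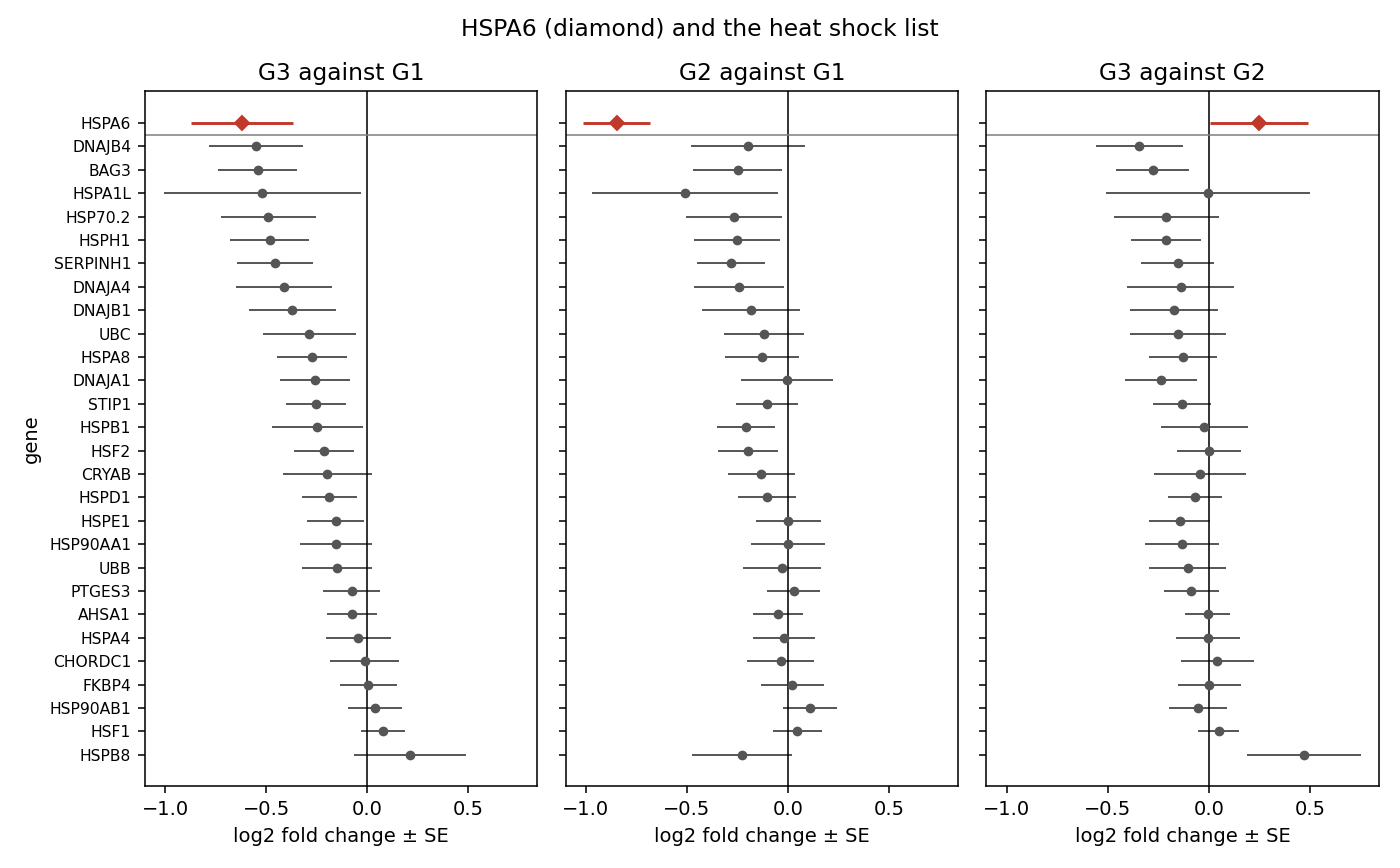
Fitted log2 fold change ± SE from edgeR for HSPA6 (diamond) and the 27 heat shock genes (points), with 1 panel per comparison and a line at zero. For G3 against G1, 23 of the 27 lie below zero, and for G2 against G1 HSPA6 lies at -0.85 while the lowest gene of the list lies at -0.51.

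Stress genes outside the heat shock list were counted in the same way. Of the other HSP70 family members, 8 of 9 symbols were found, and they include HSPA5 of the endoplasmic reticulum and HSPA9 of the mitochondrion. HSPA4L, with a log2 fold change of -0.61 (SE 0.211), and HSPA12A, with -0.29 (SE 0.113), were lower in G3 than in G1 at an unadjusted p under 0.05, and both had an edgeR adjusted p of 0.813. These are 2 of 8, beside 2.79% of all genes tested, and 0 of 8 were higher, beside 1.94%. No member passed the unadjusted threshold in the other comparisons. Of the 18 genes of the endoplasmic reticulum stress response, 0 passed an unadjusted p under 0.05 by edgeR in any of the 3 comparisons, where 2.79%, 2.09% and 1.52% of all genes were lower and 1.94%, 1.42% and 1.61% were higher for G3 against G1, G2 against G1 and G3 against G2. Of the same 18, 0 passed the adjusted threshold by edgeR, DESeq2 or limma voom with quality weights.

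Of 17 measured genes of tissue injury and the immediate early response, FOSB, a subunit of the factor AP-1, had a log2 fold change of -0.48 (SE 0.218, edgeR adjusted p = 0.813) for G3 against G1. HMOX1, which breaks down heme and is induced by oxidants and heme, ran from 99.8 to 243 CPM in G1, from 219 to 530 CPM in G2 and from 134 to 396 CPM in G3. Its log2 fold change was 0.96 (SE 0.257, edgeR adjusted p = 0.840) for G2 against G1 and -0.56 (SE 0.255, edgeR adjusted p = 0.948) for G3 against G2. Both passed an unadjusted p under 0.05 and not the adjusted threshold. The group means of HMOX1 and HSPA6 stood in opposite orders. G2 had the highest mean of HMOX1, at 369.6 CPM, and the lowest of HSPA6. HSPA6 was chosen by such differences, and HMOX1 is named for its unadjusted p. The share of all genes in this order was not counted. By edgeR at an unadjusted p under 0.05, 1 of these 17 was lower for G3 against G1 (2.79% of all genes), 1 was higher for G2 against G1 (1.42% of all genes) and 1 was lower for G3 against G2 (1.52% of all genes).

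Whether HSPA6 went up and down with its chaperone partners among kidneys of the same group was tested on 11 genes, as log2 CPM with each group's mean removed. This leaves out the differences between groups by which HSPA6 was chosen. It does not free the test of that choice, since HSPA6 and the lists were chosen with earlier results of these data known. Pearson's r was positive for all 11 and ran from 0.178 to 0.75. The deviations of HSPA6 were widest in G3, from -1.05 in kidney 2 to 0.61 in kidney 1. They ran from -0.46 to 0.28 in G1 and from -0.25 to 0.46 in G2. The pooled r thus weighs G3 most, and r within each group alone was not computed. By permutation within groups (100000 permutations, two-sided), 7 of the 11 had an unadjusted p under 0.05 with Pearson's r and 4 with Spearman's rho. Of all 13710 genes besides HSPA6 with a mean of at least 1 CPM, partners included, 1.78% passed that threshold with a positive r and 1.85% with a positive rho. None of the 11 had an adjusted p under 0.05, the smallest being 0.0618 for r and 0.0709 for rho.

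With group means removed, r was highest for the small heat shock proteins HSPB1 and CRYAB. This order depended on the centring. With code series means removed instead, r was 0.736 for HSP70.2, 0.713 for DNAJB1, 0.712 for HSPB1, 0.706 for HSPA8 and 0.657 for CRYAB. That centring leaves in differences between groups by which HSPA6 was chosen. HSPB1 had r = 0.75 (permutation p = 0.0227, adjusted p = 0.0618) and rho = 0.767 (permutation p = 0.0185, adjusted p = 0.0709). CRYAB had r = 0.733 (permutation p = 0.0193, adjusted p = 0.0618) and rho = 0.772 (permutation p = 0.0119, adjusted p = 0.0709). In G3, HSPB1 stood at 448, 301 and 358 CPM in kidneys 1, 3 and 6, where HSPA6 was high, and at 191, 171 and 184 CPM in kidneys 2, 4 and 5. CRYAB stood at 480.0, 487 and 639 CPM in the former and at 255, 283 and 255 CPM in the latter. The kidneys were split here by HSPA6 itself, and both genes are named for an r that includes these kidneys. The values are thus a description, and the share of all genes that split so was not counted. HSP70.2 split in the same way in G3.

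HSP70.2 followed with r = 0.669 (permutation p = 0.00765, adjusted p = 0.0618) and rho = 0.632 (permutation p = 0.0193, adjusted p = 0.0709). The split of counts between HSPA6 and HSP70.2 is uncertain, and its part in this r was not tested. DNAJB1, the main DNAJ partner of inducible HSP70, had r = 0.539 (permutation p = 0.018, adjusted p = 0.0618) and rho = 0.525 (permutation p = 0.0258, adjusted p = 0.071). HSPA8, the HSP70 present in all cells, had r = 0.51 (permutation p = 0.0422, adjusted p = 0.0663) and rho = 0.483 (permutation p = 0.061, adjusted p = 0.0983). BAG3 had r = 0.46 (permutation p = 0.0281, adjusted p = 0.0618) and rho = 0.4 (permutation p = 0.0715, adjusted p = 0.0983). HSPH1 had r = 0.45 (permutation p = 0.0388, adjusted p = 0.0663) and rho = 0.478 (permutation p = 0.051, adjusted p = 0.0983).

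The mitochondrial pair HSPD1 and HSPE1 had r of 0.423 and 0.408, both with an adjusted permutation p of 0.112, and rho of 0.473 and 0.431, with adjusted permutation p of 0.0983 and 0.0994. HSP90AA1, the inducible HSP90, had r = 0.29 (permutation p = 0.357) and rho = 0.252 (permutation p = 0.365). DNAJA1 had r = 0.178 (permutation p = 0.321) and rho = 0.203 (permutation p = 0.349). On the scale tested, log2 CPM of HSPA6 with group means removed, the kidneys farthest from the median were G3 kidneys 1 and 2. Without both, r was 0.727 for HSPB1, 0.671 for CRYAB, 0.49 for HSP70.2, 0.513 for DNAJB1, 0.504 for HSPA8, 0.416 for BAG3 and 0.439 for HSPH1. It was 0.395 for HSPD1, 0.392 for HSPE1, 0.455 for HSP90AA1 and 0.216 for DNAJA1. Within series C alone, with group means removed in it, r of the 11 partners rests on 8 kidneys of G2 and G3, since the only G1 kidney then deviates by 0. It ran from 0.464 for DNAJA1 to 0.923 for HSPA8, and series A and B hold too few kidneys for a value.

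The number of partners with an adjusted p under 0.05 depended on single kidneys and on the scaling and centring. In place of 0, it was 9 of 11 without G1 kidney 4 and 4 of 11 without G1 kidney 5. It was 2 with library size only, 7 with code series means removed in place of group means, and 8 with group means kept. The counts of 7 and 8 leave in differences between groups by which HSPA6 was chosen. G1 kidney 4 had the lowest HSPA6 of G1, at 675 CPM, with HSPA8, HSP90AA1 and DNAJA1 at 4035, 5089 and 700.3 CPM, each the second highest of G1. All 11 coefficients stayed positive under each of the 22 alternatives, and the lowest was 0.0992.

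**Figure D3:**
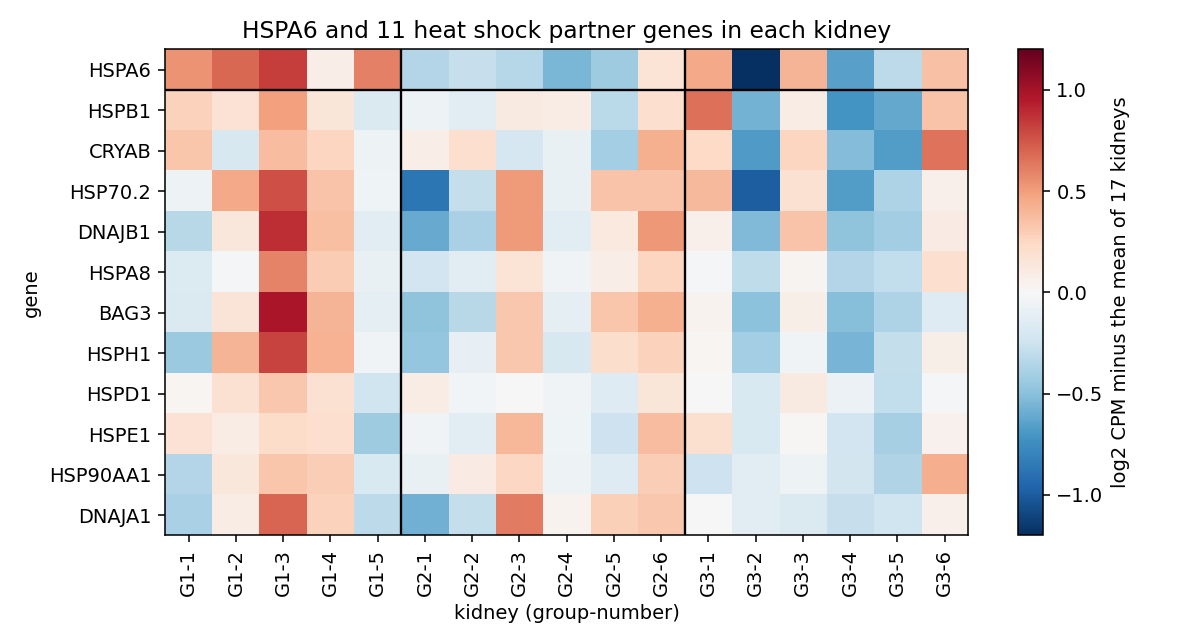
Log2 CPM of HSPA6 and its 11 partner genes in each of the 17 kidneys, as the difference from the gene's mean over all kidneys (red above, blue below), with partners in falling order of r and lines between groups. In G3, kidneys 2, 4 and 5 are blue for HSPA6 and for HSPB1, CRYAB and HSP70.2, and G1 kidney 3 is red for HSPA6 and all 11 partners.

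Over all 17 kidneys, with no group mean removed, each of the other 13710 genes with a mean of at least 1 CPM was ranked by its Pearson's r with HSPA6. These values are a description across genes that share the same libraries, and they include the group differences by which HSPA6 was chosen. The median r was -0.03 over all genes and 0.423 over the 27 heat shock genes. Of the heat shock genes, 11 had r over 0.5, or 40.7%, beside 2.6% of all genes, and 26 of 27 were positive, beside 46.0% of all genes. Those over 0.5 include HSP70.2 and HSPA1L, whose split of counts from HSPA6 is uncertain. With group means removed, 25.9% of the heat shock genes and 2.3% of all genes had r over 0.5. The median was 0.132 for the other HSP70 genes, 0.14 for endoplasmic reticulum stress and 0.156 for injury and immediate early genes. Over 0.5 were 0 of the 8 other HSP70 genes, 1 of the 18 endoplasmic reticulum stress genes (5.56%) and 1 of the 17 injury and immediate early genes (5.88%). These were DDIT3, a transcription factor of the endoplasmic reticulum stress response, with r = 0.611, and JUN, a subunit of AP-1, with r = 0.654. HMOX1 had r = -0.576. With group means removed, r was 0.532 for DDIT3, 0.575 for JUN and -0.373 for HMOX1. Over 0.5 were then 0 of the 8 other HSP70 genes and 1 of the 18 endoplasmic reticulum stress genes (5.56%). Of the 17 injury and immediate early genes 2 were over 0.5 (11.8%), FOS at 0.508 besides JUN. The medians of these lists were then -0.075, 0.222 and 0.133, beside 0.408 for the heat shock genes and -0.02 over all genes.

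The 10 genes with a symbol and the pattern most like HSPA6 hold none of the heat shock list. PPP1R15A, a stress-induced subunit that directs a phosphatase to the translation factor eIF2, came first with r = 0.813. It stood at a mean of 397 ± 41.8 CPM in G1 (SD, n = 5), 311 ± 73.0 CPM in G2 (SD, n = 6) and 291 ± 52.5 CPM in G3 (SD, n = 6). AZIN2, an inhibitor of antizyme in polyamine metabolism, had r = 0.773, the chromatin reader ING1 0.751 and the nonsense-mediated decay factor UPF3A 0.749. ID4, a helix-loop-helix inhibitor of transcription, had 0.741, FAM181B 0.737, the homeobox factor IRX5 0.734, CLHC1 0.734 and the centriole protein CENPJ 0.729. With group means removed, r of the genes named here ranged from 0.542 for UPF3A to 0.889 for IRX5. FAM181B, IRX5 and CLHC1 were expressed near the lower limit, with group means from 0.82 to 2.05 CPM, so that their values rest on few counts.

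**Figure D4:**
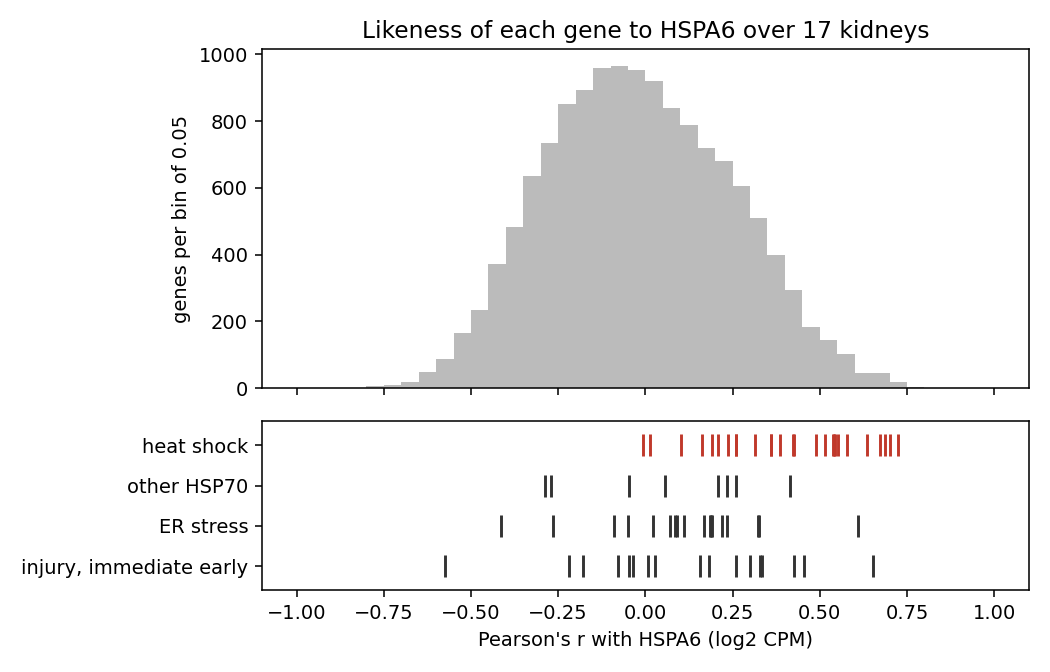
Histogram of Pearson's r between HSPA6 and each of 13710 other genes over 17 kidneys in log2 CPM (top), and the r of every member of 4 gene lists as ticks on the same axis (bottom). The heat shock genes reach from -0.01 to 0.725, with 11 of 27 over 0.5, beside 2.6% of all genes.

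Total counts per kidney ran from 19270046 to 24736473 and genes with at least 1 count from 18813 to 21049. Over 17 kidneys, r of HSPA6 log2 CPM was 0.00635 with the total count and 0.291 with the number of genes detected. Marker genes of the labelled tissue were present in every kidney, with summed levels of 9920 to 20400 CPM over 7 genes of the proximal tubule and 1810 to 6950 CPM over 3 genes of the thick ascending limb. Since NMP used blood cells, leukocyte and erythroid markers were looked at as well. The 9 leukocyte markers found of 11 summed to 91.8 to 125 CPM in G1, 77.7 to 158 CPM in G2, the range of G3 lay inside that of G1, and the granulocyte genes CSF3R and S100A8 had means under 1 CPM. The 3 erythroid markers found of 4 summed to 1.42 to 3.47 CPM in G1, 0.92 to 5.36 CPM in G2 and 0.0948 to 1.96 CPM in G3, with ALAS2 and AHSP under 1 CPM on average. The r of HSPA6 with the summed level of each of 9 marker lists lay between -0.396 for the collecting duct and 0.218 for erythroid cells. The part of cell composition in the levels of HSPA6 was not tested.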

How the data were processed

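RNA of 17 kidney biopsies was analysed. Per the submitters' notes, adapters were trimmed with cutadapt 4.0, and per the study's methods reads were aligned with STAR to Sscrofa11.1 with Ensembl annotation. The values the authors deposited are counts, unnormalized, of each gene in each kidney. The counting program, its strand setting and its treatment of multi-mapped reads are not given in the sources used here. A deposited table of the authors' own DESeq2 comparison of G3 with G1 (fold changes and p-values) was not used.

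Groups came from the sample labels. Symbols were matched for 15093 of 26560 identifiers. All genes counted at least 1 time among the kidneys of a comparison were fitted with the quasi-likelihood test of edgeR 4.0.16 (TMM, Benjamini-Hochberg adjustment, R 4.3.3). Alternatives were DESeq2 1.42.0, voom of limma 3.58.1 with quality weights, and other normalizations and filters. Further ones were all 3 groups in 1 fit, the code series as a covariate, a replicate block and leaving out each kidney. Voom was run only with quality weights, so a change under it cannot be put down to the method or the weights alone. Log2 CPM used a prior count of 2. Correlations used Python 3.11.15, numpy 2.4.6 and scipy 1.17.1 with 100000 permutations within groups and seed 1. Pipelines were tested on simulated data.

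Total counts ran from 19270046 to 24736473 per kidney. Between kidneys of 1 group, chi-square per degree of freedom was 21.39 to 152.7 over 40 pairs, so the spread among kidneys far exceeded counting error. HSPA6 and the lists were chosen with earlier results of these data known. Genes named are HSPA6, list members with an adjusted p under 0.05, the 3 heat shock genes with the smallest p per comparison, the partner genes and the 10 likest genes, of which 1 is not reported here. Other members named passed an unadjusted p or were chosen after their values were seen. Of the symbols on the lists, HAVCR1, HSPA2, SLC25A37, S100A9, FCN1 and PODXL were not matched. Of the 12 partner symbols, 2 are the same pig gene, leaving 11. No sequence is shown.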

Additional observations from a re-analysis of the deposited data

Results flagged for a closer look

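A gap test for a single high or low kidney was run on 87 groups of values, without those of HSPA6, and 5 stood apart from the rest of their group, where chance gives about 4.35. HSPA1L in G2 kidney 6 was at 4.92 log2 CPM, above the next at 3.21. In G3 kidney 6, HSPA4, an HSP70 relative that releases nucleotide, was at 8.08 log2 CPM beside 7.46 or less in the others. G1 kidney 5 was below the other G1 kidneys in 3 genes. These were FKBP4, at 7.62 log2 CPM with the next at 8.11, PTGES3, at 6.92 log2 CPM with the next at 7.39, and HSPE1, at 7.82 log2 CPM with the next at 8.34. FKBP4 and PTGES3 are co-chaperones of HSP90, and HSPE1 is the mitochondrial co-chaperonin.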

How the results depend on the processing

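The log2 fold change of HSPA6 kept its sign under all alternatives. It was -0.85 to -0.61 for G3 against G1 (-0.73 to -0.46 with 1 kidney left out). For G2 against G1 it was -0.95 to -0.85 (-0.96 to -0.78). For G3 against G2 it was 0.02, with voom and quality weights together, to 0.41 (0.13 to 0.40). The count of heat shock genes with an adjusted p under 0.05 was 0 under every alternative. Library size alone moved the median of all genes for G3 against G1 to -0.11 and put 11 heat shock genes lower at an unadjusted p under 0.05, in place of 4, beside 4.10% of all genes in place of 2.79%. The number was 12 with the replicate block (2.31% of all genes) and 9 with voom and quality weights together (3.81%). It was 0 with the code series (2.87%) and 0 to 8 with 1 kidney left out (2.04% to 3.25%).

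The number of all genes with an adjusted p under 0.05 for G3 against G1 was 2. It was 29 with DESeq2, 11 with the code series and 0 with all 3 groups in 1 fit. It was 1 with edgeR's expression filter, with at least 10 counts in every kidney, and with voom and quality weights together. Leaving out 1 kidney gave 0 to 9. For G2 against G1 it was 0, but 1 with DESeq2 and 2 with the code series. For G3 against G2 it was 0, but 3 with DESeq2, and 0 to 5 with 1 kidney left out. The number of partner genes with an adjusted p under 0.05 was 0, but 2 with library size only. It was 8 with group means kept and 7 with code series means removed instead, and both leave in differences by which HSPA6 was chosen. Leaving out 1 kidney gave 0 to 9. The cause was not tested.

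Kidney numbers do not pair the samples: same-numbered kidneys had r from -0.255 to 0.445, with 8 of 16 over 0.1, and not every kidney was closest to its own number. With a replicate block, the log2 fold change of HSPA6 was -0.80, -0.94 and 0.15 in the order above, and 9, 0 and 7 of all genes had an adjusted p under 0.05. No alternative varied the depth.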
